A study of Mus musculus with 2 samples.

Results

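Il17a, which encodes the cytokine IL-17A, and 2 genes that mark or serve the T cells known for making it, Trdc and Il23r, were followed in single migratory dendritic cells (DCs) of mouse lymph nodes. Cd163l1, a scavenger receptor gene of gamma-delta T cells, was also sought, but it has no column in the expression tables and was not analysed here. The genes were picked with their values known, because most Il17a transcripts of the series lay in a few cells classed as type 1 conventional DCs (cDC1s), so that pattern is given as a description and without a test. Of the 4 genes sought, 3 are among the 18049 genes listed for both libraries. Il17a was counted in 14 of 3471 naive cells and in 0 of 7596 papain cells, Trdc in 14 and 12 cells, and Il23r in 133 and 111 cells.

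The study profiled MHCIIhi CD11c+ B220- cells by CITE-seq, in which the transcripts of a cell are sequenced together with DNA tags carried by antibodies on its surface. The naive library came from unimmunized B6 mice, with skin-draining lymph nodes pooled according to the methods and popliteal nodes according to the sample labels, and the papain library from the popliteal nodes of B6 mice 1 day after 5 µg of ovalbumin (OVA) and 50 µg of papain, a protease allergen, were given in both rear footpads. Mice of both sexes, 6 to 12 weeks old, were used in the study, and how many were pooled is not given in the sources used here. There is 1 library per condition, so treatment, node, and library cannot be told apart, and no p-value or standard error was computed. All intervals below are 95% intervals for counting error alone. A level is the sum of a gene's UMIs (unique molecular identifiers, each standing for 1 captured transcript) over the summed depth of the cells, in CPM, that is per 1000000 UMIs.

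The depth of a cell ranged from 3637 to 57378 UMIs in naive cells (median 13764) and from 2682 to 57150 in papain cells (median 14738). The authors classed 3042 naive and 7306 papain cells by their antibody values as cDC1s, Langerhans cells (LCs), or CD301b-, CD301bint or CD301b+ cDC2s, while 429 and 290 cells have expression values but no antibody values and no class. The authors also labelled cells as Cd3e+ or Trac+, and this T cell label marks exactly the cells with a UMI of Cd3e or Trac, 419 of them naive and 563 papain. The libraries share 2 cell barcodes, and 0 of those cells held an Il17a or Trdc UMI.

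IL-17A is secreted mainly by T helper 17 cells, by gamma-delta T cells and by other innate-like lymphocytes, and acts on epithelial and stromal cells through a receptor that holds IL-17RA and IL-17RC. The receptor for IL-23, a cytokine made by DCs, pairs the Il23r product with that of Il12rb1 and maintains IL-17 production. Trdc encodes the constant part of the T cell receptor delta chain, and it lies inside the alpha chain locus, so that a chromosome on which the alpha chain has been rearranged has lost it. Gamma-delta T cells therefore carry Trdc with the gamma chain genes (Tcrg-C1, Tcrg-C2, Tcrg-C4), and alpha-beta T cells carry Trac with a beta chain gene.

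In the GRCm38.p6 annotation of RefSeq, Il17a spans 20730905 to 20734496 on chromosome 1, Il23r 67422932 to 67491855 on chromosome 6, and Trdc 54142851 to 54146108 on chromosome 14, upstream of Trac at 54220521 to 54224198 on that chromosome. The 250 bases before the annotated start of Il17a (chr1:20730655-20730904, plus strand) and of Il23r (chr6:67491856-67492105, minus strand) are shown because RORa, the nuclear receptor made from Rora, a gene described beside Il17a here, is known to act on T cells that make IL-17. Capitals mark AGGTCA, the core of the element that RORa binds, or its reverse complement TGACCT.
Il17a: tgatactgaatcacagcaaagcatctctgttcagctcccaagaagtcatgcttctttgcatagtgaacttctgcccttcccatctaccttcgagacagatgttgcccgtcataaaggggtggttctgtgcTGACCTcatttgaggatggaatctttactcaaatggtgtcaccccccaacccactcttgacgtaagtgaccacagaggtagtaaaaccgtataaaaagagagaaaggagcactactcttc
Il23r: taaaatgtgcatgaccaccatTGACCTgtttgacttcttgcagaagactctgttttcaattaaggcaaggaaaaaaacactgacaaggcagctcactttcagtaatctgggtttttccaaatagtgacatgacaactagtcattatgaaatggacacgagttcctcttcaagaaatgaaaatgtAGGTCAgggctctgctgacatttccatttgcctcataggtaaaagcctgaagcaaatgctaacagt
Il17a holds 1 such hexamer, TGACCT with its first base 120 bases before the start, and Il23r holds 2, at 229 and 66 bases before it. The hexamer, on either strand, is in 14.0% of the 32851 promoters of the same length in that annotation, and a match of letters shows no binding.

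Whether a cell counted here was classed as a DC rested on antibody tags. The tags of the antibodies the results turn on are shown, because the class of the Il17a-positive cells depends on how these 15-base oligos were counted.
XCR1: tccattacccacgtt
CD103: ttcattagcccgctg
CD172a: gattcccttgtagca
CD326: acccgcgttagtatg
XCR1 is the chemokine receptor that defines cDC1s, CD172a (SIRPa) marks cDC2s, CD326 (EpCAM) is highest on LCs, and CD103 is an integrin chain found on cDC1s and on many tissue T cells. These 4 tags differ from each other, whereas the antibodies to CD11b and CD24 are listed with the same tag, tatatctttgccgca, and were not used here.

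Most naive Il17a UMIs were in a few cDC1-classed cells, and none was counted in any papain cell. In the naive library 62 of its 66 UMIs were in 11 of 578 cDC1-classed cells, at a summed level of 6.53 CPM (5.01 to 8.37), and the other 4 were in 3 of the 429 cells without a class, at 0.548 CPM (0.149 to 1.40). LCs (440 cells), CD301b- (658), CD301bint (659) and CD301b+ cDC2s (707) held 0 UMIs. Over the 2024 naive cDC2s a count of 0 allows a share of cells with a UMI of up to 0.148%, taking 3 cells of the total as the floor here and below, which does not limit cells whose transcripts were not captured.

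The 11 cDC1-classed cells held 24, 8, 6, 4, 4, 4, 4, 3, 3, 1 and 1 Il17a UMIs, and the 3 cells without a class 2, 1 and 1. A single cell thus held 24 of the 66 UMIs, and the cDC1 level was 4.01 CPM without it. The Il17a-positive share of naive cDC1-classed cells was 1.90% (0.954 to 3.38), against 0 of 235 in the papain library, which allows up to 1.28%.

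All but 1 of the 14 Il17a-positive cells carried the T cell label. Among naive cDC1-classed cells with the label, 10 of 78 were Il17a-positive (12.8%, 6.32 to 22.3), at 41.3 CPM (31.6 to 53.1). Among those without it the number was 1 of 500 (0.200%, 0.00506 to 1.11), and that cell held 1 UMI, so the level was 0.125 CPM (0.00316 to 0.695). In the papain library only 11 cDC1-classed cells carried the label, and 0 of 11 allows a share of up to 27.3%, so within labelled cDC1-classed cells a difference between the libraries was not detectable. Over all labelled cells of any class, 13 of 419 naive cells were Il17a-positive (3.10%, 1.66 to 5.25) and 0 of 563 papain cells, which allows up to 0.533%, with median depths of 9536 and 11430 UMIs. These pools differ in make-up, since cDC1-classed cells were 78 of the 419 and 11 of the 563. Among unclassed labelled cells the numbers were 3 of 237 and 0 of 241. The genes were picked by these counts, so the pooled shares are a description.

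**Figure D1:**
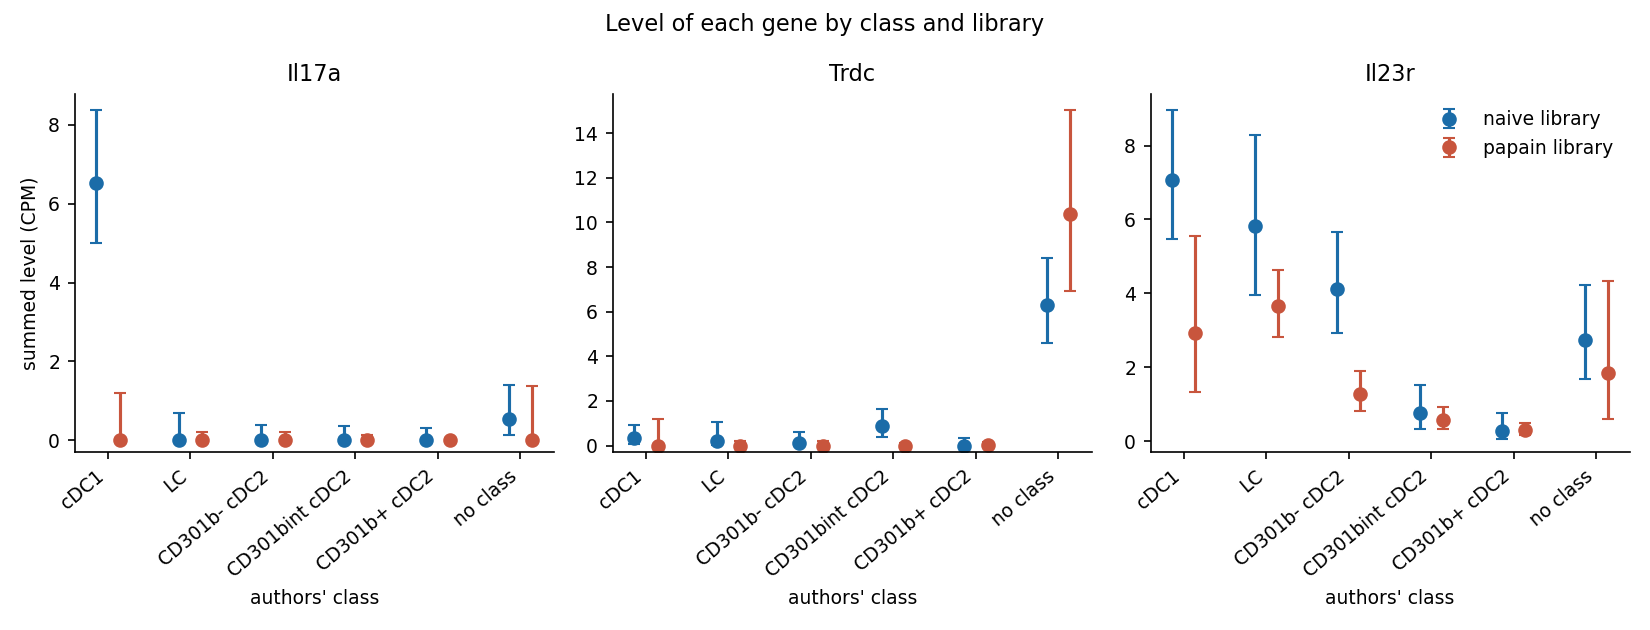
Summed level of Il17a, Trdc and Il23r in CPM (y axis, a separate scale for each gene) in each of the authors' classes and in cells without a class (x axis), in the naive and papain libraries, with 95% Poisson intervals for counting error. Il17a stands at 6.53 CPM in naive cDC1-classed cells and at 0 in every papain class, Trdc is highest in cells without a class, and Il23r falls from cDC1-classed cells and LCs to CD301b+ cDC2s.

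The antibody values of the Il17a-positive cells differed from those of the class they were put in. Values are on the authors' natural log scale, relative to the geometric mean of the antibody counts. XCR1 was 0.208, 0.230, 0.297, 0.305, 0.343, 0.362, 0.377, 0.460, 0.470, 1.17 and 1.22 in the 11 cells, against a median of 1.28 in the other 567 naive cDC1-classed cells. Thus 9 of 11 lay below 0.656, the midpoint of the XCR1 medians of cDC1s (1.23) and cDC2s (0.0869) over both libraries, as did 96 of the other 567.

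CD103 had a median of 2.03 in the Il17a-positive cells (lowest 0.758, highest 2.94) and of 1.29 in the others. CD172a had a median of 1.02 (0.113 to 1.62) against 0.122, and CD326 of 0.704 (0.582 to 1.65) against 1.65. The 68 others that carry the T cell label stood in between, with medians of 0.519 for XCR1, 1.54 for CD103, 0.410 for CD172a and 0.963 for CD326. The antibody to MHC class II gave 4.10 (3.66 to 4.57) against 4.74, and the total of antibody counts had a median of 3308 (2453 to 19811) against 10738. Itgae, which encodes CD103, was itself counted in 9 of the 11 cells, with 19 UMIs, 100 CPM, against 6.23 CPM in the other cDC1-classed cells.

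Splitting all naive cDC1-classed cells at the XCR1 midpoint put 9 Il17a-positive cells among 105 below it (8.57%, 3.99 to 15.6) and 2 among 473 above it (0.423%, 0.0512 to 1.52). The T cell label was carried by 46 of the 105 (43.8%, 34.1 to 53.8) and by 32 of the 473 (6.77%, 4.67 to 9.42). Among papain cells the label was on 3 of 42 below the midpoint and on 8 of 193 above it. With classes called again from XCR1 and CD326 alone, the naive cDC1 level of Il17a was 0.473 CPM instead of 6.53 CPM. Cells below the midpoint were 18.2% (15.1 to 21.6) of naive cDC1-classed cells with expression values and 16.0% (12.8 to 19.6) of the 470 with antibody values alone.

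**Figure D2:**
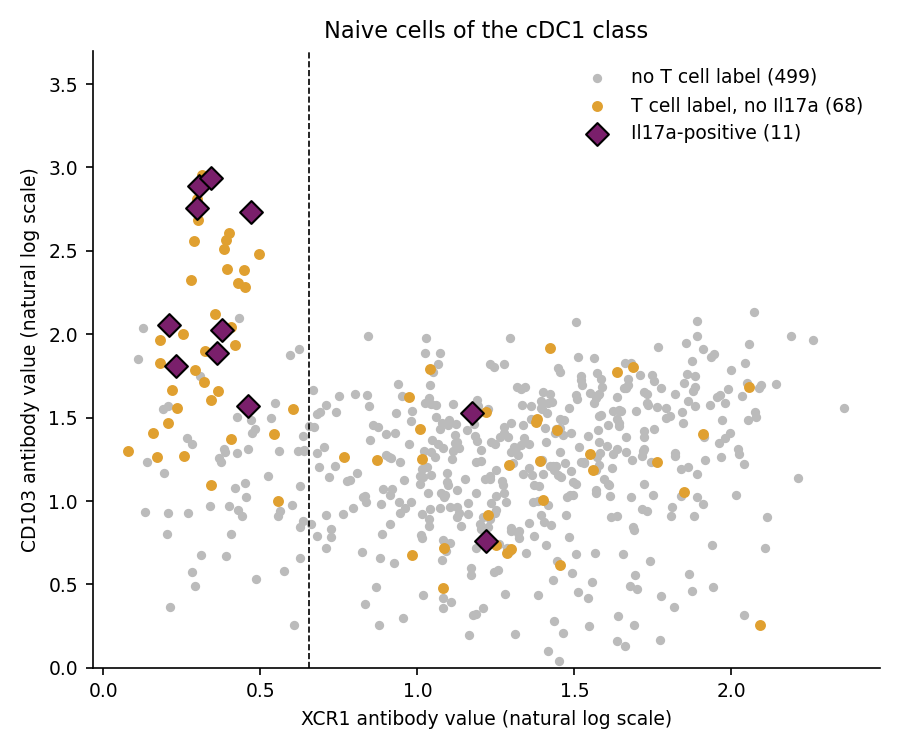
XCR1 antibody value (x axis) against CD103 antibody value (y axis), both on the natural log scale, for the 578 naive cells of the cDC1 class. Diamonds are the 11 Il17a-positive cells, and 9 of them lie left of the dashed line, the XCR1 midpoint of 0.656, together with many of the 68 other cells that carry the T cell label.

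MHC class II transcripts varied widely among the Il17a-positive cells, which were divided into a low and a high group at a set limit of 10% of the measure below. The summed CPM of Cd74, H2-Aa, H2-Ab1 and H2-Eb1, genes of antigen presentation that DCs transcribe strongly, was expressed as a percentage of the median over classed naive cells without the T cell label. It was between 0 and 9.91% in 7 of the 11 cDC1-classed cells, and 31.7%, 333%, 602% and 690% in the other 4. In the 3 cells without a class it was 3.30%, 62.6% and 640%. Of the 499 other cDC1-classed cells without the label, 6 were below 10%, and of the 68 with it, 19 were. The 7 cells of the low group had depths of 8848 to 10378 UMIs, and the 4 of the high group 23539 to 36815. Whether these barcodes hold a T cell, a T cell bound to a DC, or a DC with free T cell RNA was not tested.

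No cell of either library held both Il17a and Trdc. Trdc was at 0 UMIs in the 14 Il17a-positive cells, of which 13 held Trac, with 47 Trac UMIs in the cDC1-classed and 7 in the unclassed cells. In the 11 cDC1-classed cells Trac was at 248 CPM (183 to 330), Trbc2 at 428 (340 to 532) and Trbc1 at 275 (205 to 360), while a count of 0 leaves Trdc below a floor of 15.9 CPM. Trbc1 and Trbc2 are near-identical copies, and Tcrg-C1 and Tcrg-C2 are close copies, so reads may be divided between copies in a way the counting cannot show.

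Cd4 was at 0 UMIs in the 14 cells. Cd8a had 16 UMIs in 2 of the 11 cDC1-classed cells, both of the high MHC class II group, and 9 UMIs in 2 of the unclassed cells. Gamma chain transcripts were present as well. Tcrg-C1 had 13 UMIs in 6 of the 11 cells, 68.7 CPM (36.6 to 118), Tcrg-C2 2 UMIs in 2 cells, and Tcrg-C4 none. A Tcrg-C gene was counted in 7 of the 11 cells, with 15 UMIs, and in 2 of the 3 unclassed cells, so the cells held alpha, beta and gamma chain transcripts and no counted delta chain transcript.

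**Figure D3:**
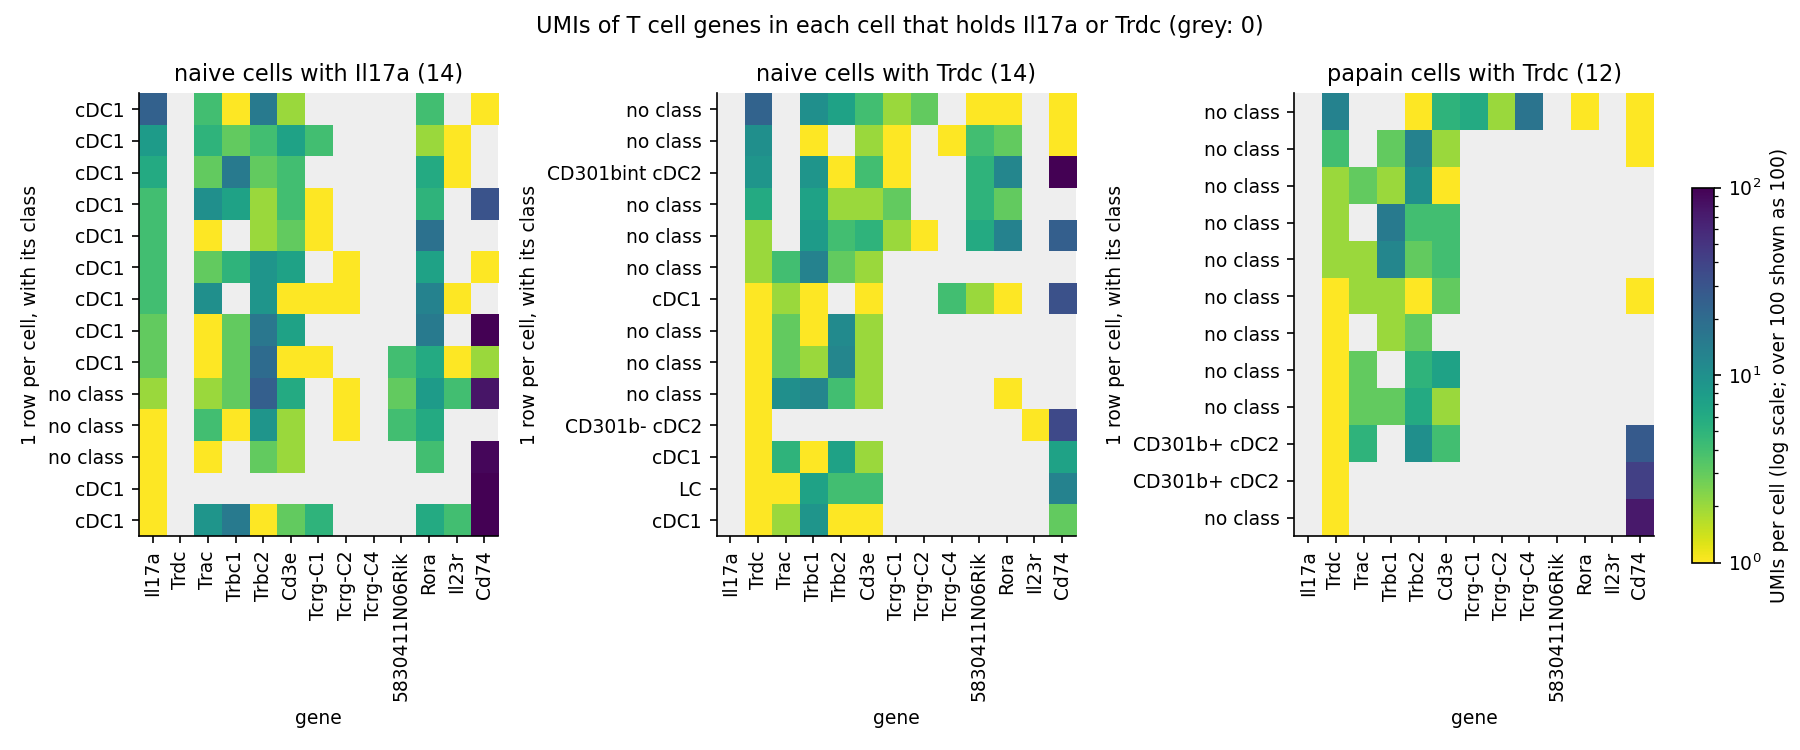
UMIs of 13 genes (x axis, log colour scale, grey for 0 and a ceiling of 100) in each naive cell with Il17a, each naive cell with Trdc and each papain cell with Trdc (y axis, 1 row per cell, named by its class). The Trdc column is empty in the 14 Il17a-positive cells, 13 of which hold Trac, and the 5 cells with the most Trdc, 4 naive and 1 papain, hold no Trac.

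Several genes of IL-17-producing gamma-delta T cells were counted in most Il17a-positive cells, and others of the same list in few or none. The 11 cDC1-classed cells were set against the other 567 naive cDC1-classed cells, by the log2 ratio of summed CPM plus 1, over the 3135 genes that reached 50 CPM in one group or the other. A ratio past 1 in size was reached upward by 22.5% and downward by 11.5% of all genes tested, and their median was 0.22. Of the 24 genes of the gamma-delta T17 list beside Il17a, 14 could be tested, and 13 were past 1 upward and 0 downward, with a median of 2.86. Since a gene can enter through a high level in the 11 cells alone, these are descriptions. Because 10 of the 11 cells carry the T cell label and few of the others do, a second comparison, added after the data were seen, used only the 68 others with the label. There 9.67% of 3092 genes were past 1 upward and 6.18% downward, and 4 of 14 list genes upward and 0 downward, with a median of 0.84 against 0.10 over all genes tested. In that comparison the T cell receptor and CD3 genes had a median of 0.70 and the alpha-beta T cell genes one of 0.74. The median of the gamma-delta T17 list was thus near those of these T cell lists, and whether it differs from them was not tested. Those lists hold Cd3e and Trac, the genes by which the 68 cells were labelled.

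Transcription factor genes of the list come first here. Rora, which encodes RORa, had 82 UMIs in 10 of 11 cells, 433 CPM (345 to 538), against 243 (217 to 271) in the 68 labelled and 42.8 in all other cDC1-classed cells. Maf, a factor of IL-17 and IL-10 producers, had 38 UMIs in 9 cells, 201 CPM against 94.4, and Zbtb16, which encodes PLZF of innate-like T cells, 18 in 7 cells, 95.2 CPM against 40.3.

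Receptors followed. Il7r, the IL-7 receptor chain of naive, memory and innate-like T cells, was in all 11 cells with 124 UMIs, at 656 CPM against 444 in the 68 labelled cells. Those 11 include the cell without the T cell label, in which Cd3e, Trac and Rora were at 0 UMIs. Cxcr6, a chemokine receptor of tissue T cells, was in 9 cells at 354 CPM against 184, and Igf1r, the receptor for insulin-like growth factor 1, in 10 cells at 227 against 117. Blk, a Src-family kinase, was in 8 cells at 111 CPM against 44.1. Il23r was in 5 cells with 8 UMIs, 42.3 CPM (18.3 to 83.3), against 22.1 (14.8 to 31.7), so its intervals overlap. Serpinb1a, a protease inhibitor gene, had 78 UMIs, of which 43 were in 1 cell, at 412 CPM against 390. The scavenger receptor gene 5830411N06Rik, of gamma-delta T cells, was in 1 of the 11 cells with 4 UMIs. It stood at 21.1 CPM (5.76 to 54.1) against 40.3 (30.2 to 52.8) in the 68 labelled cells. Tcrg-C4 was at 0 against 11.4 CPM and Trdc at 0 against 2.28, differences that the floor of 15.9 CPM cannot show.

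**Figure D4:**
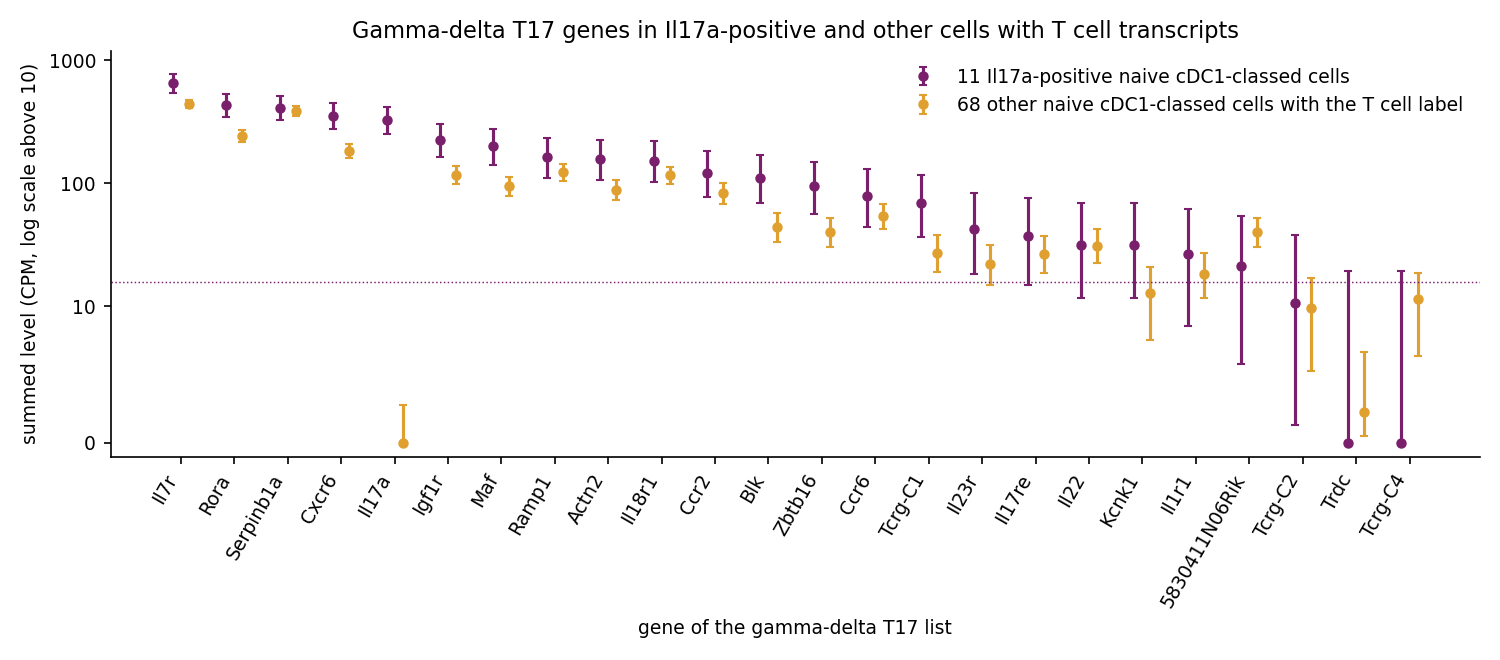
Summed level in CPM (y axis, log scale above 10) of the genes of the gamma-delta T17 list reported here (x axis, ordered by level) in the 11 Il17a-positive naive cDC1-classed cells and in the 68 other naive cDC1-classed cells with the T cell label, with 95% Poisson intervals. The dotted line is the floor of 15.9 CPM that 3 counts give in the 11 cells, and Trdc and Tcrg-C4 are at 0 in them while Rora is at 433 CPM.

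T cell receptor and CD3 genes were higher in 10 of 11 tested and lower in 0 against all other naive cDC1-classed cells, and higher in 4 of 12 and lower in 0 against the labelled ones. Cd3d, Cd3g and Cd3e, chains of the CD3 signalling complex, stood at 412, 359 and 206 CPM in the 11 cells against 196, 273 and 142 in the 68. Lat, an adaptor that acts below the receptor, stood at 254 CPM against 123, and Thy1, a T cell surface protein, at 296 against 171. Of the alpha-beta T cell genes, 4 of 4 tested were higher against all others and 0 of 4 against the labelled cells. The labelled cells were chosen by Cd3e and Trac UMIs, so those genes are no finding between the labelled and the others.

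Genes of other lymphocytes were mostly at 0. Of 13 listed NK and innate lymphoid genes, 8 were at 0 UMIs in the 11 cells, Ncr1, Klrb1c, Gzma and Eomes among them, and 4 of 4 tested were higher against both comparison groups. Those 4 were Areg (51 UMIs, 40 of them in 1 cell), Gata3 (33 UMIs, 20 in 1 cell), Klrd1 (14, 11 in 1 cell) and Nkg7 (11, 7 in 1 cell). Of 8 B cell genes 6 were at 0, with 3 UMIs of Ighm and 1 of Cd79b. Summed over each list, NK and innate lymphoid genes were at 587 CPM against 145 in the labelled cells and 35.1 in all others, and B cell genes at 21.1 against 42.6 and 55.7.

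DC genes went both ways in the summed levels, which pool the low and high MHC class II groups of Il17a-positive cells. In the cDC1 list 1 of 3 tested genes was higher and 1 lower, Irf8 (a factor on which cDC1s depend) at 169 CPM against 574, and Itgae higher. Batf3, a partner factor, was at 132 CPM against 243, and Xcr1 had 6 UMIs in 4 cells. Among the 10 tested genes of MHC class II and migratory DCs 1 was higher and 4 lower, with Ccl5 at 6291 CPM against 30988 and Fscn1, of migratory DCs, at 1041 against 2446. Cd74 stood at 6946 CPM against 4448, and 522 of its 1314 UMIs were in 1 cell. That cell is of the high MHC class II group, whose other cells held 510, 247 and 31. No cell of the low group held more than 2. Irf8 was counted in the high group alone, with 20, 7, 4 and 1 UMIs in its 4 cells. Of the other lists, cDC2 and cell cycle genes gave 0 tested genes, Langerhans cell genes 1 tested that was past 1 in neither direction (Mfge8, 402 CPM against 405, with 67 of its 76 UMIs in 1 cell), and genes of monocytes, macrophages and neutrophils 1 lower (Lyz2, 26.4 CPM against 110). Against the labelled cells the counts were 4 higher and 2 lower of 10 for MHC class II and migratory DC genes, 1 higher and 0 lower of 3 for cDC1 genes, 1 higher of 1 for Langerhans cell genes (Mfge8), and 1 lower of 1 for monocyte, macrophage and neutrophil genes (Lyz2).

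The genes with the highest ratios against all other naive cDC1-classed cells rested on few cells. They were Gm10827 (5.44 on the log2 scale, 23 UMIs, 15 in 1 cell), Areg (5.43), which encodes amphiregulin, Plagl1 (4.78, 10 UMIs in 2 cells), Frmd6 (4.69, 12 UMIs in 3 cells) and Rnu3a (4.46, 17 UMIs in 7 cells). The 5 lowest, Insm1, Olfr109, Il7, Zfp872 and Tent5c, were at 0 UMIs in the 11 cells. Against the floor of 3 counts, Insm1 was at least 13.1-fold lower than its 208 CPM in the other cells, Olfr109 at least 7.18-fold, Il7 (the ligand of the IL-7 receptor) at least 5.53-fold, Zfp872 at least 4.89-fold and Tent5c at least 4.15-fold.

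The genes most like Il17a in distribution were ranked by the share of their naive UMIs that lay in the 14 Il17a-positive cells, among 4228 genes with a UMI in at least 5 of those cells and 20 UMIs in the library. These cells hold 0.465% of the library's UMIs. Tpbgl came first with 8 of 32 UMIs (25%), followed by Acsbg1, of fatty acid activation, with 21.3% (10 of 47) and Sdc1, which encodes the proteoglycan syndecan-1, with 20.9% (48 of 230, in 9 of the 14 cells). Acbd7 (20.8%), Lingo4 (18.4%), Ly6g5b (18.03%), Hlf (17.9%), Abi3bp (17.5%), Kcnk1 (16.98%) and Blk (16.8%) came next. Blk and Kcnk1 are also in the gamma-delta T17 list, and Hlf, a leucine zipper factor, was in 10 of the 14 cells. The points share 1 library and the choice of cells, and neighbouring ranks rest on a difference of a few UMIs. In the papain library, 0 of 7596 cells held Il17a or Kcnk1, and Lingo4 had 1 UMI.

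Trdc lay mainly in cells without a class, in both libraries. In the naive library 46 of its 60 UMIs were in 8 of the 429 unclassed cells, 6.30 CPM (4.61 to 8.40). A single CD301bint cDC2 held 9, and 3 cDC1-classed cells, 1 LC and 1 CD301b- cDC2 held 1 each. Of 30 papain UMIs 28 were in 10 of 290 unclassed cells, 10.4 CPM (6.91 to 15.03), and 2 CD301b+ cDC2s of 2893 held 1 each. The intervals of the unclassed levels overlap between the libraries, as do the shares of cells, 1.86% (0.808 to 3.64) and 3.45% (1.67 to 6.25).

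Per cell, the naive counts were 23, 10, 9, 6, 2 and 2, with 8 cells at 1 UMI, and the papain counts 13, 4, 2, 2 and 2, with 7 cells at 1 UMI. The T cell label was on 13 of 14 naive and 9 of 12 papain cells. Of the naive unclassed cells 237 carried the label, and the summed MHC class II level was below 10% of the DC median in 203 of them. Of the papain unclassed cells 241 carried it, 211 of them below 10%. Among unclassed labelled cells Trdc stood at 19.8 CPM (14.5 to 26.4) among naive cells and 13.9 (9.08 to 20.4) among papain cells.

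The cells with many and with few Trdc UMIs differed in their other receptor transcripts. The 4 naive cells with 5 or more Trdc UMIs held 0 UMIs of Trac, 7 of Tcrg-C1, 3 of Tcrg-C2, 1 of Tcrg-C4 and 15 of 5830411N06Rik, a scavenger receptor gene of gamma-delta T cells, and each of the 4 held Tcrg-C1 and 5830411N06Rik. The naive cells with a single Trdc UMI held Trac in 7 of 8, with 26 UMIs, Tcrg-C1 and Tcrg-C2 in 0 of 8, and Tcrg-C4 (4 UMIs) and 5830411N06Rik (2 UMIs) in 1, a cDC1-classed cell that also held Trac. The 1 papain cell with 13 Trdc UMIs held 17 UMIs of Tcrg-C4, 6 of Tcrg-C1 and 2 of Tcrg-C2 and none of Trac, while in the other 11 papain cells no Tcrg-C UMI was counted. Trdc was thus counted together with a Tcrg-C gene in the 5 cells of the series with 5 or more Trdc UMIs, in 1 naive cell with 2 and in 1 naive cell with 1. Trbc1 was counted in the 4 naive cells too, with 27 UMIs, and was at 0 in the papain cell.

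Cells with 2 or more Trdc UMIs, 6 naive and 5 papain, were set against all other cells of their library. Of all genes tested, 29.9% were past 1 upward and 11.9% downward in the naive library, and 30.4% and 36.9% in the papain library, where 5 cells hold 42584 UMIs in all. Of the gamma-delta T17 genes beside Trdc, 13 of 15 tested were higher and 1 lower for the naive cells, and 8 of 10 higher and 2 lower for the papain cells. A gene can enter here too through a few UMIs in the Trdc cells alone, so these are descriptions. Listed genes at 0 UMIs numbered 3 in the naive and 13 in the papain cells. Against cells with Cd3e or Trac and no Trdc, 816 naive genes were higher, 10 of them of the list, and 796 papain genes, 7 of them of the list. The numbers of genes tested there were not recorded, so no share stands beside these counts and nothing is read from them about the list. In the naive library Rora was at 491 CPM in 5 of 6 cells, Maf at 184 in 3 and Blk at 61.4 in 2, and Il17a and Il23r at 0. The 5 highest naive ratios were those of Iigp1 (7.10), an interferon-induced GTPase gene, 5830411N06Rik (6.37), Tcrg-C1 (5.88), Edaradd (5.71) and Gm18853 (5.69). Among the papain cells Tcrg-C4 (8.63), Cxcr6 (7.23), Tcrg-C1 (7.13), Ctla2a (7.04) and Eomes (7.02) led, and each was in 1 cell alone, the one with 13 Trdc UMIs. Genes of MHC class II and migratory DCs were lower in 8 of 11 tested for the naive cells and in 9 of 9 for the papain cells.

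Il23r was counted in many cells without the T cell label. Of 133 naive Il23r-positive cells 96 were unlabelled, and of 111 papain ones 103, in libraries where most cells are unlabelled. The share of Il23r-positive cells was 8.83% (6.29 to 11.97) among the 419 labelled and 3.15% (2.56 to 3.83) among the 3052 unlabelled naive cells, and 1.42% (0.615 to 2.78) and 1.46% (1.20 to 1.77) among the papain cells. Its naive level was 7.06 CPM (5.47 to 8.96) in cDC1-classed cells, 5.83 (3.96 to 8.28) in LCs, 4.12 (2.91 to 5.65) in CD301b- cDC2s, 2.74 (1.67 to 4.23) in unclassed cells, 0.774 (0.334 to 1.53) in CD301bint and 0.263 (0.0542 to 0.768) in CD301b+ cDC2s. Papain LCs stood at 3.65 CPM (2.83 to 4.64), cDC1-classed cells at 2.93 (1.34 to 5.56), unclassed cells at 1.86 (0.603 to 4.33), and CD301b-, CD301bint and CD301b+ cDC2s at 1.27 (0.808 to 1.91), 0.578 (0.337 to 0.926) and 0.297 (0.166 to 0.489). Neighbours in both orders have overlapping intervals, apart from the unclassed and CD301bint cells of the naive library.

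Among cells without the label, an Il23r UMI was found in 29 of 500 naive cDC1-classed cells (5.80%, 3.92 to 8.22), 26 of 426 LCs (6.10%, 4.03 to 8.82), 24 of 620 CD301b- (3.87%, 2.50 to 5.71), 4 of 628 CD301bint (0.637%, 0.174 to 1.62) and 2 of 686 CD301b+ cDC2s (0.292%, 0.0353 to 1.05). The median depth of the last class, 15170 UMIs, stands beside 10678 in LCs and 15649 in cDC1-classed cells, and the part of depth in the order was not tested. The cDC1, LC and CD301b- shares had intervals above that of CD301b+ cDC2s, the class with the lowest share. In the papain library the shares were 6.73% (5.11 to 8.67) in 817 LCs, 2.68% (0.989 to 5.74) in 224 cDC1-classed cells, 1.20% (0.703 to 1.92) in 1412 CD301b-, 0.683% (0.353 to 1.19) in 1757 CD301bint and 0.397% (0.198 to 0.708) in 2774 CD301b+ cDC2s.

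Between the libraries the unlabelled CD301b- cDC2s had intervals that did not overlap, naive 3.72 CPM (2.54 to 5.25) against papain 1.33 (0.842 to 1.99), with shares thinned to 8392 UMIs per cell of 2.48% and 0.875%. The thinned shares of unlabelled LCs were 4.25% and 3.19%, and those of cDC1-classed cells 3.22% and 1.67%. Levels of unlabelled LCs, 5.69 CPM (3.81 to 8.17) and 3.78 (2.91 to 4.83), and of cDC1-classed cells, 3.74 (2.52 to 5.34) and 2.41 (0.970 to 4.97), had overlapping intervals.

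MHC class II transcripts were counted in most unlabelled Il23r-positive cells, at a lower median over all classes together than in the other unlabelled cells. Only 2 of the 96 naive and 5 of the 103 papain cells were below 10% of the DC median, with medians of 53.9% and 59.3% against 105% and 101% in the other unlabelled cells. The medians in CD301b- cDC2s were 47.2% against 164% when naive and 53.1% against 210% after papain, and in naive cDC1-classed cells 89.1% against 87.5%. In LCs they were 43.7% against 47.0% when naive and 50.3% against 52.5% after papain. The order was reversed in papain CD301bint (112% against 104%), CD301b+ (195% against 103%) and unclassed cells (288% against 119%). The remaining classes were lower, and the part of class in the pooled gap was not tested. A gamma chain transcript was found in 5 of the 96 and 0 of the 103. A single Il23r UMI was all that 88 of the 96 and 84 of the 103 cells held. Labelled cells differed. Il23r was found in 22 of 78 naive labelled cDC1-classed cells (28.2%, 18.6 to 39.5), of which 14 also held a gamma chain transcript and 12 were below 10% of the DC median of MHC class II. Among papain cells it was found in 1 of the 11 labelled cDC1-classed cells.

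**Figure D5:**
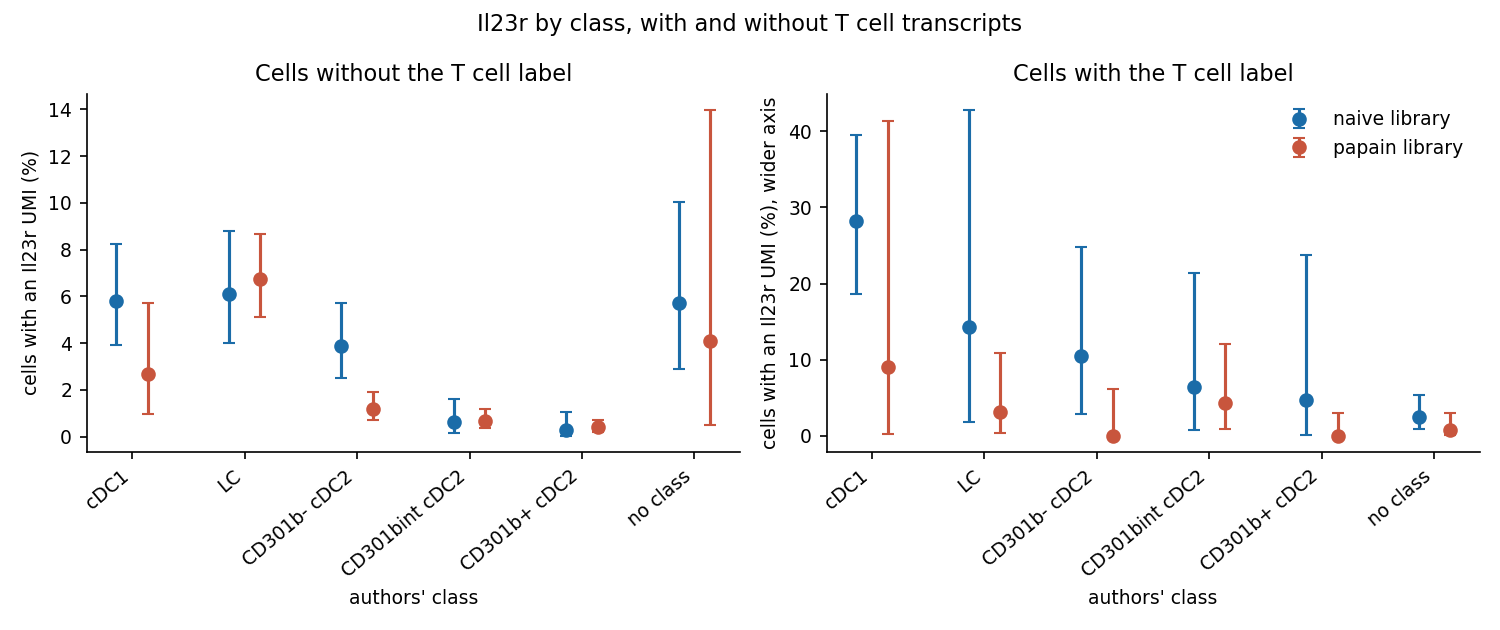
Share of cells with an Il23r UMI (y axis, in percent, on a wider axis at the right) by the authors' class (x axis) and library, in cells without and with the T cell label, with exact 95% binomial intervals. Without the label, LCs stand at 6.10% and 6.73% and CD301b+ cDC2s at 0.292% and 0.397% in the naive and papain libraries.

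The partner chain of the IL-23 receptor was hardly counted in the same classes. Il12rb1 had 0 UMIs in the 500 unlabelled naive cDC1-classed cells, which allows up to 0.600% of cells, and 0 in the 426 LCs, and 1 UMI each in the papain cDC1-classed cells and LCs. In the 11 Il17a-positive cDC1-classed cells it had 4 UMIs in 3 cells, 21.1 CPM, beside 9.89 in the 68 labelled others. Stat3, through which the receptor signals, was between 144 and 174 CPM in the unlabelled naive classes and between 194 and 254 in the papain ones. Of 3 tested genes of the receptor and STAT3 list, 0 were past 1 in the Il17a-positive cells against either comparison group. Il23r did not reach 50 CPM and was not among the 3. It stood at 42.3 CPM (18.3 to 83.3) in the 11 cells against 6.34 (4.83 to 8.18) in all other naive cDC1-classed cells.

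The cytokines that act upstream of IL-17 were found in the DCs. Il23a, the subunit of IL-23 that IL-12 lacks, was highest in unlabelled CD301b+ cDC2s, at 3.60 CPM (2.57 to 4.90) when naive and 4.10 (3.55 to 4.72) after papain, the class with the lowest unlabelled Il23r share in both. It was lowest in naive cDC1-classed cells, at 0.125 CPM (0.00316 to 0.695), and the naive interval of CD301bint cDC2s (1.02 to 2.81) overlaps that of CD301b+ ones. Il12b, the subunit that IL-23 shares with IL-12, was highest in cDC1-classed cells, at 363 CPM (350 to 376) when naive and 223 (206 to 241) after papain. Il1b, which encodes an IL-1 that promotes IL-17 production, ran from 58.2 CPM in naive cDC1-classed cells to 805 in naive CD301b+ cDC2s, and from 87.2 to 453 in the same papain classes. In the Il17a-positive cells 2 of 3 tested genes of this list were higher against either comparison group. Il1b and Tgfb1 were the 2 against all other cells, and Il12b and Il1b against the labelled ones, with 34 of the 60 Il12b UMIs and 25 of the 54 Il1b UMIs in 1 cell each.

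Genes of the response to IL-17 were read in the DCs as well. Il17ra, the shared receptor chain, was at 27.0 CPM (24.03 to 30.2) in unlabelled naive CD301b+ cDC2s, 10.6 (7.95 to 13.8) in LCs and 13.1 (10.7 to 15.9) in cDC1-classed cells, and at 26.1, 13.0 and 12.8 CPM in the papain library. Il17rc, its partner for IL-17A, was below 1 CPM in every unlabelled class of both libraries. Nfkbiz, a target of IL-17 and of many other signals, was at 684 CPM in naive CD301b+ cDC2s and 115 in cDC1-classed cells, and it was the 1 tested gene of this list, at 460 CPM in the Il17a-positive cells against 140 in all other and 293 in labelled cDC1-classed cells. Of the IL-17 ligand genes, Il17a was the only one listed, so the others were not analysed here.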

How the data were processed

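CITE-seq libraries (10x Genomics 3' v3) of sorted MHCIIhi CD11c+ B220- cells were analysed, 1 per condition. Per the labels, the authors processed reads with Cell Ranger 3.0.1 and Partek against mm10, and deposited each gene as log2 of CPM plus 1, each antibody as a natural log of its centred count, and the antibody total as a count. UMIs were recovered from the steps of the log2 values, and 100% of values up to 50 UMIs were whole within 0.02. Classes (7th column) and the T cell label (9th column) were the authors'. Python 3.11.15 with numpy 2.4.6, scipy 1.17.1 and pandas 2.3.3 summed UMIs per library and class, with exact Poisson and Clopper-Pearson 95% intervals and a floor of 3 counts. Ratios used a pseudocount of 1 CPM and genes that reached 50 CPM in one group or the other, were tested on simulated data, and carry no p-value. Shares were also thinned to 8392 UMIs, the 10th percentile of depth. Genes named were the members, up to 6 genes per list with the most UMIs in Il17a-positive cells, the 10 most like Il17a, and the 5 highest and lowest ratios. Genes named outside this rule, Zbtb16 among them, were chosen after their values were seen. Members and gene lists were chosen with earlier results of these data known. No doublet caller was run. Depth was 2682 to 57378 UMIs per cell. A few listed genes count in the totals of their lists but are not reported here by name.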

Additional observations from a re-analysis of the deposited data

How the results depend on the processing

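No paired analysis was possible because each condition has 1 library. Of the recomputed main values, 94 stayed within the counting interval or within 1.5 times the count and 33 moved past it. Il17a in naive cDC1-classed cells was 9.82 CPM as a mean over cells, 4.01 without the cell with the most UMIs, 0.125 without the T cell label and 0.473 with classes from antibodies. Without the label Il17a in naive unclassed cells was 0 CPM. Trdc in naive unclassed cells was 16.4 CPM as a mean over cells, 3.15 without its top cell, 12.2 without the deepest 5% of cells and 0 without the label, and its share was 0.655% when thinned. In papain unclassed cells it was 5.59 CPM without its top cell and 2.43 without the label. Il23r in naive cDC1-classed cells was 3.74 CPM without the label and 3.43 with classes from antibodies. Asking for 2 UMIs gave Il23r shares of 1.56%, 0.682% and 0.608% in naive cDC1-classed cells, LCs and CD301b- cDC2s and 0.851%, 1.02% and 0.408% in the papain ones, with 0.0691% in papain CD301b+ cDC2s, and thinning gave 5.73% in naive cDC1-classed cells, 2.57% in naive CD301b- cDC2s and 3.07% in papain LCs. For the Il17a-positive cells, genes lower numbered 568 with means over cells and 583 with 2 or more Il17a UMIs, against 361. Against labelled cDC1-classed cells, chosen after seeing the data, 299 genes were higher (705 against all others), 191 lower, and 4 of the list higher instead of 13. With 1 or more Trdc UMIs 666 naive genes were higher instead of 1059, and 405 papain genes higher and 408 lower instead of 1013 and 1229. With 3 or more, 2167 papain genes were higher, and against cells with Cd3e or Trac 264 naive genes were lower instead of 422. Some orders were reversed. With 3 or more Trdc UMIs, 2167 papain genes were higher and 1222 lower, where the main counts had more genes lower than higher. Naive Il23r was higher in cDC1-classed cells than in LCs in the main values, 7.06 against 5.83 CPM. It was lower in them without the label, 3.74 against 5.69, and with classes from antibodies, 3.43 against 5.25. Directions were not compared gene by gene. The cause of these shifts was not tested. With 11 cells and 189168 UMIs, genes below 15.9 CPM could not be told from 0.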
